A study of Mus musculus with 8 samples.

Results

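The genes described here are those of the cytosolic ribosomal proteins, the protein part of the machine that translates messenger RNA outside mitochondria. They were chosen by symbol alone: every gene whose symbol begins with Rpl or Rps followed by a digit, together with Rplp0, Rplp1, Rplp2 and Rpsa, and without the S6 kinases, whose symbols begin with Rps6k. The rule took 90 of the 17276 genes in the files. By symbol, 77 of them are core ribosomal protein genes and 6 are paralogues. A further 3 are pseudogenes and 3 are retrogenes, copies made by reverse transcription of a messenger RNA. The remaining one is Rps19bp1, which carries a matching name but codes for a protein that binds RPS19. The genes were measured by RNA sequencing in hepatocytes of wild-type male C57BL/6N mice aged 6 to 8 weeks, kept static (4 libraries) or exposed to shear stress (4 libraries). Shear stress is the drag of a flowing fluid on a cell surface. Both groups share strain, genotype, sex and age. The labels do not give the strength or length of the flow, or whether animals were pooled. They leave unstated whether each library is a separate animal, so p-values measure only the spread between these 8 libraries, which may be technical.

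A ribosome has a large and a small subunit, each an RNA core covered by one copy of most of its proteins. The small subunit reads the messenger RNA, and the large subunit joins amino acids and releases the growing chain through an exit tunnel. Most messenger RNAs of these proteins begin with a run of pyrimidines (C and T in the gene) right at the cap, the 5′ terminal oligopyrimidine or TOP motif. Through it the cell sets their translation by nutrient supply and the kinase mTORC1, so that their mRNA level and their protein output can move apart. The libraries measure only the mRNA level.

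The start regions below give examples with and without that feature. Each line gives 20 bases before and 20 bases from an annotated transcription start (RefSeq, GRCm38.p6), 5′ to 3′ on the gene's strand, and capitals mark a run of at least 8 pyrimidines. The first 6 are core genes with such a run across the start. The last 3 are the core gene Rps2 and the paralogues Rpl36al and Rpl7l1, which have none in the window.
Rpl15 (chr14:18270967-18271006, minus strand): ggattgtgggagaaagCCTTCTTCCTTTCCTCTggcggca
Rpl7a (chr2:26910787-26910826, plus strand): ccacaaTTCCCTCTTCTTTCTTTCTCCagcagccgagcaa
Rpl28 (chr7:4792945-4792984, plus strand): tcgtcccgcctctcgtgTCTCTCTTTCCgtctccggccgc
Rps18 (chr17:33955646-33955685, minus strand): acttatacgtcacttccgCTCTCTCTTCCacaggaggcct
Rps27 (chr3:90213629-90213668, minus strand): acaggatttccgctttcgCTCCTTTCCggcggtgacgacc
Rps6 (chr4:86857348-86857387, minus strand): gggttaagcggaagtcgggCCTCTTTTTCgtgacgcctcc
Rps2 (chr17:24720043-24720082, plus strand): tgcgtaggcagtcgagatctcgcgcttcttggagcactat
Rpl36al (chr12:69184048-69184087, minus strand): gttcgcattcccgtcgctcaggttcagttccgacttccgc
Rpl7l1 (chr17:46782637-46782676, minus strand): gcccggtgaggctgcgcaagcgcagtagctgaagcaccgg

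The RefSeq promoter table held 68 of the 90 genes, 57 of them core. A run of at least 8 pyrimidines on the gene's strand lay in this window for 28 of the 57 core genes, 49.1%, against 18.4% of all 27025 genes in the table. On the opposite strand 5 of 57, or 8.77%, held one, against 20.2% of all genes. The run was counted anywhere in the window, and in Rpl5, for example, it lay wholly before the start. The count is therefore not one of runs right at the cap. An annotated start that is off by some bases moves the run or takes it out of the window. In the 300 bases around the start, on both strands, CCGGAAG (the core of sites for ETS factors) occurred in 24 of 57 core genes, 42.1%, against 9.93% of all genes. AAGATGG, the core of YY1 sites, occurred in 15.8% against 7.28%. TATAAA, the TATA box, occurred in 10.5% against 15.7%, and the E-box CACGTG in 10.5% against 8.09%. CCGGAAG and AAGATGG share the letters AAG at their ends, and TATAAA and AAGATGG share AA, so that one stretch can match both motifs of a pair. A match of letters is a description of the window. Core genes with the pyrimidine run had a median log2 fold change under shear stress of -0.03, from -0.19 to 0.15 over 28 genes. Those without it had a median of -0.01, from -0.17 to 0.12 over 29 genes.

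The libraries held 15067056 to 17935566 estimated read counts in static culture and 16225843 to 16732203 under shear stress. Abundance is given as CPM, counts brought to a common library size, after scaling with TMM factors, which set the libraries level on the bulk of genes. In CPM, 3 counts correspond to 0.157 to 0.227, depending on the library. The TMM factors differed between the groups, at 0.926 ± 0.037 in static and 1.08 ± 0.043 under shear stress (SD, n = 4 each). The 20 most abundant genes held 21.5% ± 1.08 of static counts and 18.8% ± 0.839 of shear stress counts. The gene of albumin, the main plasma protein made by hepatocytes, held 62211 CPM in static and 41827 CPM under shear stress (Alb). The labelled cell type was checked by marker genes. The summed hepatocyte markers lay at 68570 to 88882 CPM in static and 45564 to 62420 CPM under shear stress, and of the 6 genes 5 were called lower with TMM factors and 1 with library totals.

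With TMM scaling, messenger RNAs of the ribosomal proteins differed little between static and shear-stressed hepatocytes, and few passed the test. Of 86 members with enough counts to test, 2 were called higher and 0 lower at an adjusted p of 0.05 (edgeR quasi-likelihood test, Benjamini-Hochberg over 11747 genes). That is 2.33% of members, against 48.6% of all tested genes, of which 24.9% were higher and 23.7% lower. The genes called were Rpl7l1 and Rpl3. At an unadjusted p under 0.05 the count was 2 higher and 2 lower, against 55.9% of all tested genes in either direction. DESeq2 called 2 higher and 1 lower, against 52% of all genes in either direction. The median log2 fold change was -0.03 for members and -0.01 for all tested genes. The edgeR and DESeq2 counts above leave out the pairing of libraries by replicate number. With the replicate number as a block, edgeR called 2 members higher and 2 lower, against 61.1% of all tested genes in either direction.

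The members' precision bears on that count. Their median standard error was 0.09 on the log2 scale, against 0.16 for all tested genes. The 95% interval of the change stayed within 1.5-fold in either direction for 82 of 86 members, 95.3%, and for 28.5% of all tested genes. All 77 core genes were among the 82. The log2 fold change was smaller than 0.2 in size for 81 of 86 members, 94.2%, and for 24.8% of all tested genes. Core genes ranged from -0.19 to 0.27 with an SD across genes of 0.08, where all tested genes had an SD of 0.94. All tested genes include many of lower abundance, so other abundant genes were set beside the members. Among 1712 other genes of at least 100 CPM, 51.3% were called, with a median of -0.27. Their median standard error was 0.12, with 41.3% of intervals within 1.5-fold and 28.6% of changes under 0.2. Of these, 202 had an effective length (the length in which a read can start) of at most 1000 bases, which many ribosomal protein mRNAs share. Among the 202, 29.7% were called, with a median of -0.23. Their median standard error was 0.12, with 47.0% of intervals within 1.5-fold, 35.6% of changes under 0.2 and an SD of 0.53. These shares are descriptions side by side, and the difference between the lists was not tested.

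**Figure D1:**
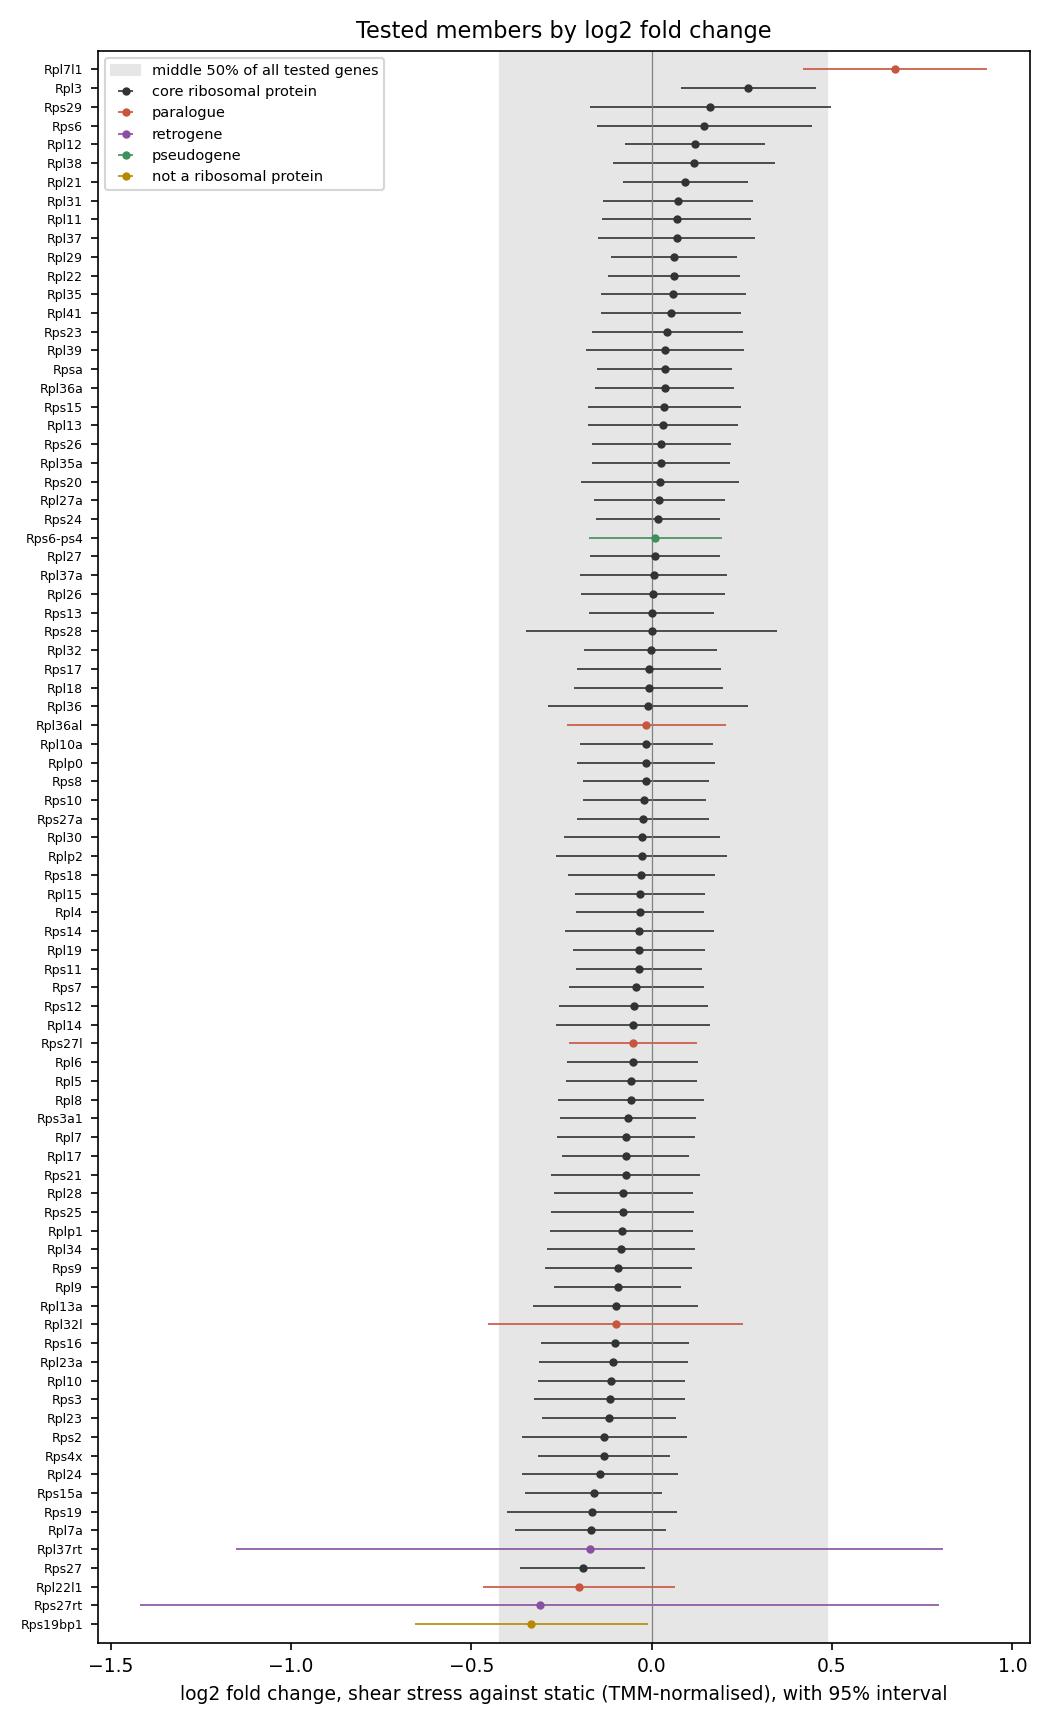
Log2 fold change, shear stress against static, of 84 of the 86 tested members (points) with 95% intervals (bars), coloured by class and ordered by size; the grey band is the middle 50% of all 11747 tested genes. The points of all core genes drawn lie inside the band, Rpl7l1 at 0.67 stands outside it, and Rpl37rt and Rps27rt have wide intervals at about 1 CPM.

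Rpl7l1 had the largest log2 fold change among the 86 tested members. It lies on chromosome 17 (46773907 to 46782656, GRCm38.p6) and codes for a relative of RPL7 that belongs to a family with a role in the assembly of the large subunit. In static libraries 1 to 4 it stood at 61.4, 77.7, 67.2 and 57.8 CPM. In shear stress libraries 1 to 4 it stood at 100, 118, 96.0 and 107 CPM. The groups did not overlap, and every shear stress library was higher than the static library of the same number. The mean rose from 66.0 ± 8.66 to 105 ± 9.59 CPM (SD, n = 4 each), a log2 fold change of 0.67 ± 0.11 (SE, 95% interval 0.42 to 0.93, adjusted p = 0.00125 by edgeR), or 1.60-fold.

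Rpl3, on chromosome 15 (80077781 to 80083406), codes for a large-subunit protein that reaches toward the peptidyl transferase centre, where peptide bonds form. Its static libraries held 525, 564, 507 and 524 CPM and its shear stress libraries 632, 676, 592 and 654 CPM. The lowest shear stress library was above the highest static one. The mean rose from 530 ± 24.2 to 638 ± 35.7 CPM, a log2 fold change of 0.27 ± 0.08 (SE, 95% interval 0.08 to 0.46, adjusted p = 0.0243 by edgeR), or 1.20-fold. The call was lost without any one of 5 libraries. Leaving out static library 1, 3 or 4 gave adjusted p values of 0.0562, 0.0567 and 0.0574, and leaving out shear stress library 2 or 4 gave 0.0627 and 0.0644, with log2 fold changes of 0.26, 0.24, 0.26, 0.24 and 0.26.

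**Figure D2:**
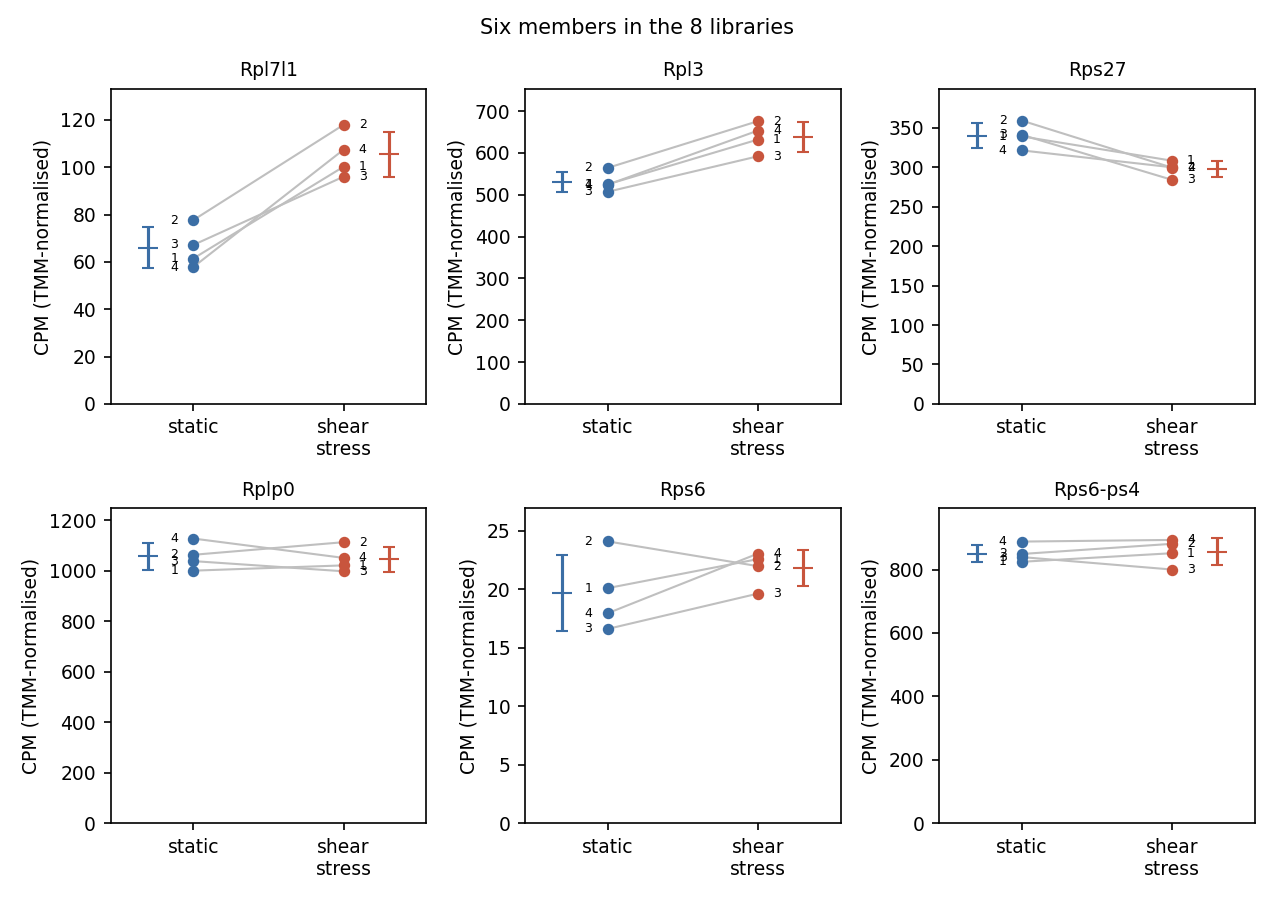
TMM-normalised CPM of 6 members in the 4 static (blue) and 4 shear stress (red) libraries; numbers are replicate numbers, grey lines join equal numbers, and crosses with bars are mean ± SD. Groups are apart for Rpl7l1, Rpl3 and Rps27 and overlap for Rplp0, Rps6 and Rps6-ps4.

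Among the lower values, Rps27 came nearest to a call. It codes for a zinc-finger protein of the small subunit and lies on chromosome 3 (90212667 to 90213648). It stood at 339, 359, 341 and 321 CPM in static and 308, 300, 284 and 300 CPM under shear stress. The groups did not overlap, and the log2 fold change was -0.19 ± 0.08 (SE), with an adjusted p of 0.0656 by edgeR. With the replicate number as a block in the edgeR fit the adjusted p was 0.0291, and by DESeq2 it was 0.0133. The block also gave an adjusted p of 0.0456 to Rpl7a, a large-subunit protein, at a log2 fold change of -0.17, so that 2 members were higher and 2 lower, where the block called 61.1% of all tested genes. Reads of Rps27 cannot be told from those of its near-identical copy Rps27rt, so its count is an estimate. Rps19bp1, the one member whose product is no ribosomal protein, had a log2 fold change of -0.33 with an adjusted p of 0.0807 by edgeR.

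Normalised CPM of the groups did not overlap for 7 members, against 45.3% of all tested genes. Higher were Rpl7l1, Rpl3 and Rpl21. Rpl21, a large-subunit protein, stood at 517, 550, 567 and 564 CPM in static and 594, 580, 582 and 591 CPM under shear stress, with a log2 fold change of 0.09 (adjusted p = 0.34 by edgeR). Among those lower were Rps27, Rps4x and Rps15a. Rps4x, a small-subunit protein coded on the X chromosome, stood at 627, 699, 628 and 654 CPM against 600, 619, 560 and 601 CPM. The log2 fold changes of Rps4x and Rps15a were -0.13 and -0.16, and neither passed the test (adjusted p of 0.209 and 0.143 by edgeR).

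By subunit, the 46 core genes of the large subunit had a median log2 fold change of -0.02, with 1 higher (Rpl3) and 0 lower. The 31 core genes of the small subunit had a median of -0.03, with 0 higher and 0 lower. At an unadjusted p under 0.05 the edgeR counts for the small subunit were 0 higher and 1 lower, and DESeq2 called Rps27 lower. Of all tested genes, edgeR called 48.6%, and 55.9% had an unadjusted p under 0.05. The large subunit's genes ranged from -0.17 to 0.27 and the small subunit's from -0.19 to 0.16.

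The P stalk of the large subunit, built on RPLP0 with RPLP1 and RPLP2, brings in the translation factors that use GTP. Its 3 genes had log2 fold changes of -0.08 to -0.02, and none passed the test, against 48.6% of all tested genes. Rplp0 held 1000, 1063, 1038 and 1127 CPM in static and 1021, 1113, 998 and 1051 CPM under shear stress, so that the libraries of both groups covered the same range. Its mean was 1057 ± 53.5 against 1046 ± 49.8 CPM, and the 95% interval of its log2 fold change ran from -0.21 to 0.18. Rplp0 is often used as a reference gene in PCR.

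RPL5 and RPL11 bind the 5S ribosomal RNA and, when free of ribosomes, bind the p53 regulator MDM2. Rpl5 held 660, 713, 645 and 688 CPM in static and 638, 681, 622 and 662 CPM under shear stress. Its log2 fold change was -0.06 (adjusted p = 0.591 by edgeR), and that of Rpl11 was 0.07 (adjusted p = 0.558). The groups overlapped for both.

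Around the peptidyl transferase centre, Rpl3 rose while Rpl8 and Rpl10 did not pass the test. Rpl10, whose protein joins late in assembly, held 1066, 1118, 1302 and 1129 CPM in static and 1058, 1085, 1067 and 1061 CPM under shear stress. The shear stress libraries were tight, at an SD of 12.4 CPM, and the static ones spread, at an SD of 103 CPM. The log2 fold change was -0.11 (adjusted p = 0.338 by edgeR).

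The 8 genes of the exit tunnel and its rim, where the new chain leaves the large subunit, had log2 fold changes of -0.11 to 0.07. Of these 8 genes 0 passed the test, against 48.6% of all tested genes. The most abundant of the 8, Rpl4, held 1027, 984, 995 and 1017 CPM in static and 1010, 1007, 941 and 976 CPM under shear stress. Its 95% interval ran from -0.21 to 0.14.

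In the small subunit, the 5 genes at the mRNA entry and decoding site (Rps2, Rps3, Rps9, Rps15 and Rps23) had log2 fold changes of -0.13 to 0.04. Rps2, the most abundant member by CPM, held 1323, 1524, 1580 and 1471 CPM in static and 1247, 1522, 1287 and 1331 CPM under shear stress. The groups overlapped at a log2 fold change of -0.13 (adjusted p = 0.314 by edgeR). At the mRNA exit, Rps14 and Rps26 had log2 fold changes of -0.03 and 0.03. Rps26 held 558, 594, 565 and 534 CPM in static and 556, 577, 535 and 626 CPM under shear stress. None of these genes passed the test, against 48.6% of all tested genes.

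Rps27a codes for ubiquitin fused to a small-subunit protein. It held 394, 396, 423 and 407 CPM in static and 406, 426, 366 and 397 CPM under shear stress, at a log2 fold change of -0.02. The 4 X-linked genes (Rpl10, Rpl36a, Rpl39 and Rps4x) ranged from -0.13 to 0.04. The 18 genes on the list of those mutated in Diamond-Blackfan anaemia, an inherited failure of red cell production, had a median of 0.002 and ranged from -0.19 (Rps27) to 0.16 (Rps29). None of these passed the test, against 48.6% of all tested genes. Rps29 had one of the wider intervals of the core genes, from -0.17 to 0.50, and its static libraries spread from 96.3 to 150 CPM.

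Rps6, the ribosomal protein that S6 kinase phosphorylates downstream of mTORC1, was counted far below the other core genes. It held 20.1, 24.1, 16.6 and 17.9 CPM in static and 22.6, 22.0, 19.6 and 23.0 CPM under shear stress. The gene named Rps6-ps4 (chromosome 2, 75190995 to 75191854), a transcribed pseudogene of Rps6 in RefSeq, held 825, 849, 839 and 888 CPM in static and 852, 881, 800 and 894 CPM under shear stress. The GENCODE transcript of Rps6-ps4 is 750 bases long and matched an Rps6 transcript of 878 bases at all 750 positions. Reads from that stretch therefore cannot be assigned to either gene by sequence, and both genes had counts that were not whole numbers in all 8 libraries. The level of either gene alone is uncertain for that reason. Summed, the pair had a log2 fold change of 0.01 (adjusted p = 0.901 by edgeR), a sum formed after the values were seen.

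Other copies share sequence in the same way. Rps27rt matched Rps27 at 341 of 341 aligned bases, and Rpl37rt matched Rpl37 at 293 of 294. Rps27rt was counted at 1.18 and 0.953 CPM and Rpl37rt at 1.57 and 1.37 CPM in static and shear stress. Rpl32l, whose transcript was 96.0% identical to that of Rpl32, stood at 8.04 against 7.50 CPM. In all, 21 members had a count that was not whole in at least one library. The members that were too low to test were Rps23rg1, Rpl34-ps1, Rpl3l and Rpl31-ps12, with 15, 5, 8 and 0 counts over the 8 libraries. Rpl3l codes for the form of RPL3 known from heart and skeletal muscle.

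The sign of the members' change depended on the scaling, and so did that of the median gene. With library totals in place of TMM factors the members' median log2 fold change was 0.20 and that of all tested genes 0.22. With upper quartile factors the medians were 0.11 and 0.13, and on log2(FPKM + 1) they were 0.17 and 0.17. The members' median minus that of all genes stayed between -0.05 and 0.02 in each of these and in every other alternative run, including each left-out library. With library totals 16 members were called higher and 0 lower, against 35.4% of all genes higher and 13.1% lower. The log2(FPKM + 1) values gave 17 higher and 0 lower, against 35.4% and 12.8% of all genes. Upper quartile factors gave 4 higher and 0 lower, against 31.1% and 16.9%. Of the calls among all genes, 51.2% were higher with TMM factors, 73.0% with library totals and 73.5% with FPKM. Rpl7l1 and Rpl3 were called higher under each of these scalings, at log2 fold changes of 0.67 to 0.90 for Rpl7l1 and 0.27 to 0.49 for Rpl3.

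**Figure D3:**
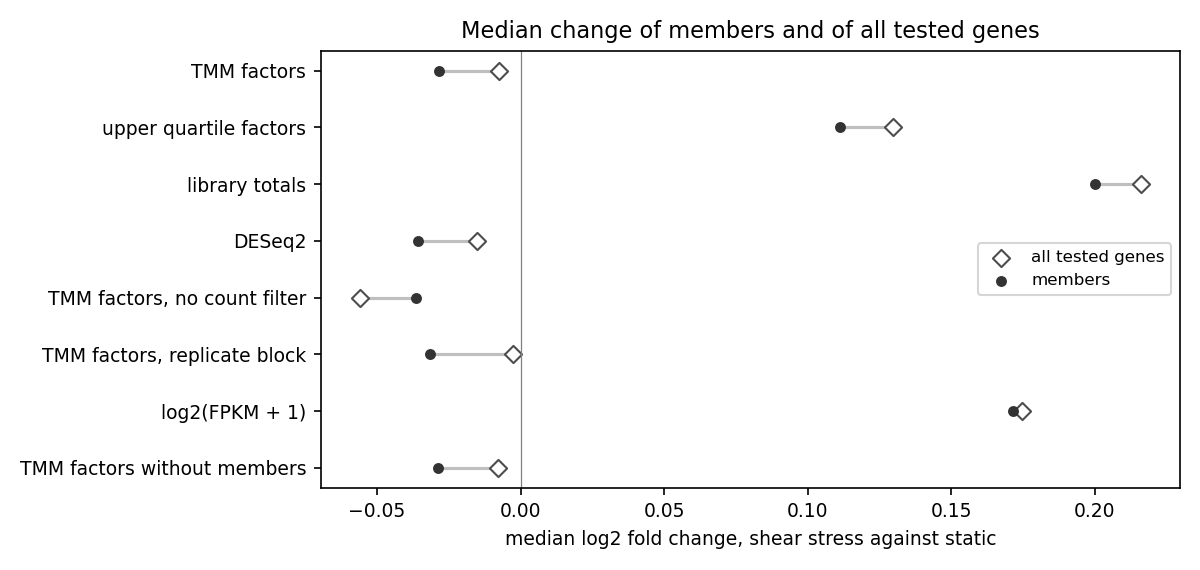
Median log2 fold change, shear stress against static, of the members (filled circles) and of all tested genes (open diamonds) under 8 settings, with the 2 joined by a line. Both medians move together, from near 0 with TMM factors to 0.20 and 0.22 with library totals.

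As a share of the measured transcripts, the sum of the 90 members was higher under shear stress. It took 10.3, 12.0, 11.0 and 10.7% of the total in TPM (a unit that divides each count by transcript length and sums to the same total in every library) in static libraries 1 to 4, and 11.7, 14.0, 12.0 and 12.1% in shear stress libraries 1 to 4. The means were 11.0% ± 0.718 and 12.5% ± 1.06 (SD, n = 4 each), and the share was higher in 4 of 4 pairs of equal number, although the highest static library lay above the lowest shear stress library. Without shear stress library 2 the difference in the means was 0.909 percentage points in place of 1.43. As a share of estimated counts the means were 3.34% ± 0.133 and 3.83% ± 0.321. After TMM scaling the summed CPM were 36136 ± 1114 and 35388 ± 1658, and 2 of 4 pairs were higher. A share of a fixed total rises when other genes hold less of it, and the 20 most abundant genes held less. The data carry no measure of RNA per cell, so an absolute change cannot be told apart from a change in the rest of the RNA. The large subunit's TPM were 1.28 ± 0.017 times those of the small subunit in static and 1.31 ± 0.017 times under shear stress.

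**Figure D4:**
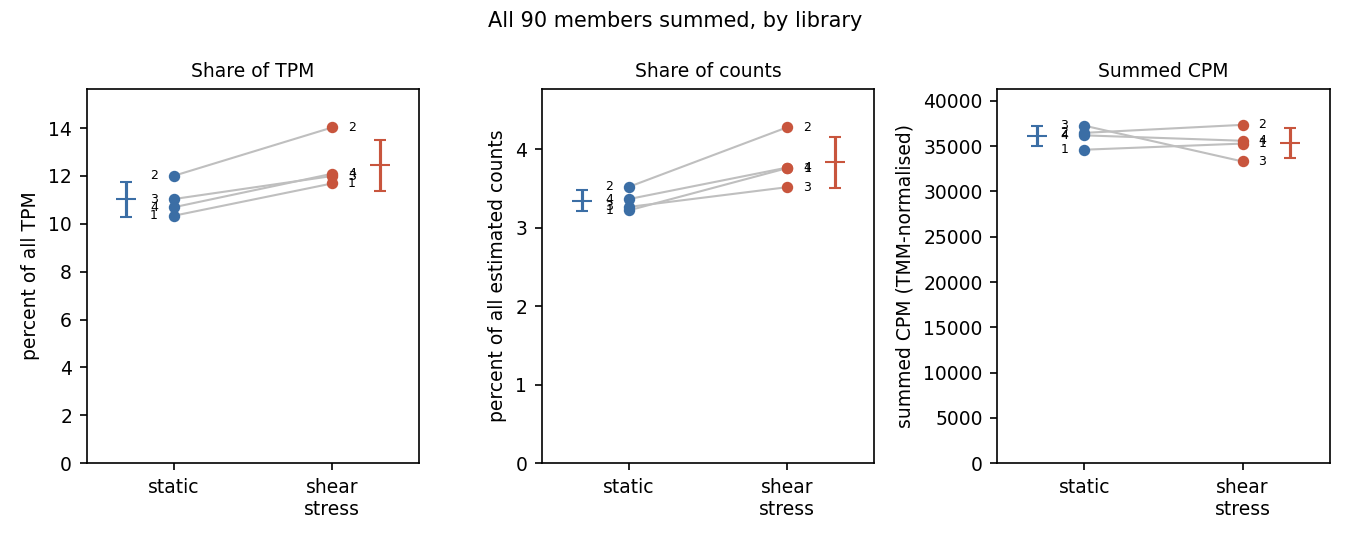
All 90 members summed in each library, as percent of TPM, percent of estimated counts and TMM-normalised CPM; blue is static, red shear stress, numbers are replicate numbers, and crosses with bars are mean ± SD. Both shares are higher in each shear stress library than in the static library of the same number, and the normalised sums overlap.

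The core genes stood in nearly the same order of level in both groups. Across the 77 core genes, the Spearman correlation of mean TPM between the groups was 0.994, over 4 libraries a group, as a description across genes that share libraries and transcript lengths. The median core gene stood at 1189 TPM in static and 1367 TPM under shear stress, and 57 and 60 of the 77 genes lay within 2-fold of it. Rps27 was highest per length, at 5335 and 5185 TPM. Its effective length in the files was only 80.9 bases, so its TPM rests on a very short length estimate. Apart from Rps6, Rps15a was lowest per length, at 54.1 and 56.6 TPM, with an effective length of 4858 bases. That rank rests on the length. By CPM Rps15a held 214 in static and 191 under shear stress, above core genes such as Rpl39 at 89.3 and 91.6. Effective length was under 200 bases for 13 of the core genes.

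Many core genes had their lowest or highest value in the same library. Of the 77 core genes, 63 had their lowest shear stress CPM in library 3 and 54 their highest in library 2. In static culture 37 had their lowest in library 1 and 37 their highest in library 3. The same counts were not made over all tested genes, so whether this is particular to the members was not tested.

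Paralogues can replace their parent protein in the ribosome or serve other functions. The log2 ratio of TPM between a paralogue and its parent within one library does not depend on how libraries are scaled. Of 4 pairs with enough counts, Rpl7l1 against Rpl7 moved most. Its log2 ratio was -4.89, -4.64, -4.65 and -4.96 in static and -4.08, -3.95, -4.05 and -4.02 under shear stress. The groups did not overlap, and the ratio was higher in 4 of 4 pairs of equal number, by 0.76 on average or 1.69-fold. The exact two-sided permutation p was 0.0286, the smallest that 4 against 4 libraries can give, and 0.114 after adjustment over the 4 pairs. For every ratio this permutation treated the libraries as unpaired, and no test that keeps the pairing by replicate number was run. Rpl7, a large-subunit protein, held 508, 544, 475 and 505 CPM in static and 477, 516, 448 and 493 CPM under shear stress, at a log2 fold change of -0.07 (adjusted p = 0.517 by edgeR).

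Rpl22 binds RNA, and Rpl22l1 is its close relative. Rpl22l1 held 32.7, 30.8, 39.2 and 28.7 CPM in static and 27.5, 26.4, 31.2 and 29.1 CPM under shear stress, at a log2 fold change of -0.20 (adjusted p = 0.189 by edgeR). Rpl22 had more counts, at a mean of 187 CPM in static and 195 CPM under shear stress. Per length, Rpl22l1 exceeded Rpl22 in all 8 libraries, with a mean log2 ratio of 0.70 ± 0.20 in static and 0.42 ± 0.17 under shear stress (SD, n = 4 each). That order rests on effective lengths in the files of 210 bases for Rpl22l1 and 1925 bases for Rpl22. The ratio was lower under shear stress in 4 of 4 pairs of equal number, but the groups overlapped (exact permutation p = 0.0857, adjusted 0.114). Rps27l, a p53-responsive relative of Rps27, had a mean log2 ratio to Rps27 of -3.14 ± 0.13 and -2.95 ± 0.09, higher in 4 of 4 pairs (exact permutation p = 0.0857, adjusted 0.114). For Rpl36al against Rpl36a the ratio was -0.29 ± 0.09 and -0.33 ± 0.09 (exact permutation p = 0.543). No pair passed after adjustment.

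**Figure D5:**
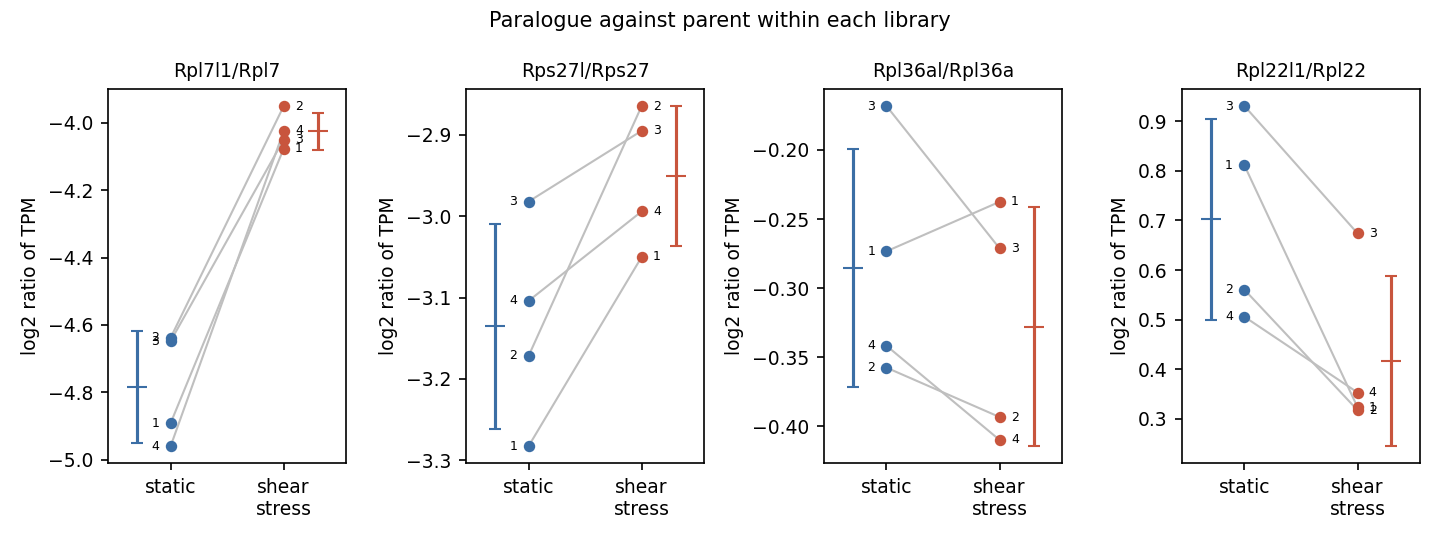
Log2 ratio of TPM of each paralogue to its parent in the 4 static (blue) and 4 shear stress (red) libraries; numbers are replicate numbers, grey lines join equal numbers, crosses with bars are mean ± SD, and each panel has its own axis. The groups are apart for Rpl7l1/Rpl7 and overlap for the other pairs.

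Genes that work with ribosomal proteins gave other counts. Fau and Rack1 code for ribosomal proteins but have names outside the rule. Neither passed the test, with log2 fold changes of -0.07 and -0.11. Rack1, which links signalling kinases to the small subunit, held 671, 705, 734 and 729 CPM in static and 658, 649, 642 and 679 CPM under shear stress (adjusted p = 0.265 by edgeR).

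Of 17 other genes whose mRNAs carry a TOP motif, 1 rose and 4 fell, with a median log2 fold change of -0.12. Among all tested genes 24.9% were higher and 23.7% lower, or 35.4% and 13.1% with library totals. The splicing factor gene Hnrnpa1 rose by 1.03 (174 to 354 CPM, adjusted p = 0.0027 by edgeR). The elongation factor gene Eef2 fell by 0.47 on the log2 scale (3957 to 2854 CPM, adjusted p = 0.00277), and the initiation factor gene Eif4b fell by 0.32 (504 to 402 CPM, adjusted p = 0.0205). With library totals 3 rose and 0 fell, and neither Eef2 nor Eif4b passed the test (adjusted p of 0.0849 and 0.525). Leaving out shear stress library 1, 3 or 4 also ended the call of Eif4b, at adjusted p values of 0.0752, 0.0528 and 0.06.

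Of 25 initiation factor genes, 1 rose and 4 fell, with a median of -0.01. The shares of all tested genes were again 24.9% higher and 23.7% lower, or 35.4% and 13.1% with library totals. Eif3d, a subunit of the factor that holds the small subunit ready, rose by 0.61 (150 to 229 CPM, adjusted p = 0.000676 by edgeR). Eif1, which guards the choice of start codon, fell by 0.67 on the log2 scale (701 to 441 CPM, adjusted p = 0.00187), and Eif4g2 fell by 0.39 (1093 to 834 CPM, adjusted p = 0.00777). With library totals 8 rose and 1 fell, and Eif4g2 did not pass the test (adjusted p = 0.234).

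Of 18 genes of mTORC1 and TOP control, 3 rose and 8 fell, with a median of -0.17. Calls were common in the whole series too, at 48.6% of all tested genes, 24.9% higher and 23.7% lower. Ddit4, an inhibitor of mTORC1, held 17.2, 15.1, 17.9 and 19.3 CPM in static and 38.5, 36.8, 33.9 and 35.0 CPM under shear stress, and rose by 1.05 ± 0.11 (SE, adjusted p = 0.000109 by edgeR). Rps6kb1, the S6 kinase that phosphorylates RPS6, held 80.8, 87.0, 99.1 and 74.1 CPM in static and 40.9, 43.2, 46.5 and 40.2 CPM under shear stress. It fell by 0.997 ± 0.109 on the log2 scale (SE, adjusted p = 0.000151). Akt1s1, an inhibitory mTORC1 component also known as PRAS40, fell by 0.65 (142 to 90.9 CPM, adjusted p = 0.000671 by edgeR). Larp1, which binds TOP mRNAs directly, was at 250 and 255 CPM (adjusted p = 0.781). With library totals 6 rose and 4 fell, against 35.4% of all tested genes higher and 13.1% lower.

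Of 8 chaperones that carry or place single ribosomal proteins, 5 rose and 1 fell, with a median of 0.40. The counts were the same with library totals. All tested genes gave 24.9% higher and 23.7% lower, or 35.4% and 13.1% with library totals. Pdcd2l, a partner of RPS2, rose by 0.77 (6.80 to 11.6 CPM, adjusted p = 0.00203 by edgeR). Ltv1, an assembly factor of the small subunit, rose by 0.49 (33.3 to 47.0 CPM, adjusted p = 0.0106). Aamp fell by 0.56 (145 to 98.3 CPM, adjusted p = 0.00137).

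The mitochondrial ribosome is the separate machine that translates mitochondrial DNA products. Its 78 genes gave 20 higher and 8 lower, or 35.9%, with a median of 0.16. That share was below the 48.6% of all tested genes, of which 24.9% were higher and 23.7% lower. Mrpl19 rose by 1.08 (24.6 to 52.0 CPM, adjusted p = 8.55e-05 by edgeR), Mrps2 by 1.27 (25.2 to 61.0 CPM, adjusted p = 0.00023) and Mrpl17 by 0.77 (54.7 to 93.5 CPM, adjusted p = 0.000238). The SD across the mitochondrial list was 0.35, against 0.08 for the core cytosolic genes. With library totals 43 rose and 1 fell, against 35.4% of all tested genes higher and 13.1% lower. The difference between the mitochondrial and the cytosolic list was not tested.

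Markers of other cells were low beside those of hepatocytes. The summed cholangiocyte markers ranged from 131 to 1318 CPM in static and 215 to 1704 CPM under shear stress, with 0 of 3 tested genes called by edgeR, 2 of 3 called higher with the replicate block and 1 of 3 with library totals. Kupffer cell markers ranged from 22.1 to 55.9 and 16.6 to 56.6 CPM, sinusoidal endothelial markers from 9.36 to 22.2 and 4.53 to 19.0 CPM, stellate cell markers from 5.46 to 11.9 and 6.54 to 9.03 CPM, and red cell markers from 10.4 to 37.3 and 7.67 to 28.0 CPM. Of the tested genes in these 4 lists, the endothelial Pecam1 was called lower. With the replicate block 1 of 2 stellate cell genes and 1 of 1 red cell gene were also called lower. Lymphocyte markers summed to 8.70 to 11.7 CPM in static and 0.115 to 0.626 CPM under shear stress, and the B cell genes Cd79a and Cd79b, 2 of 2 tested, were called lower. No listed marker in the files was at 0 in every library. In bulk RNA, fewer cells of a type and less RNA per cell cannot be told apart. The part of these markers in the members' values was not tested.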

How the data were processed

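RNA of 8 libraries of mouse hepatocytes, 4 static and 4 under shear stress by their titles, was extracted with TRIzol and sequenced on the DNBSEQ platform, per the labels. The submitters' processing notes name HISAT, Bowtie2, RSEM and GRCm38 (mm10). The sources used here state no version, annotation or use of read strand. Per the file headers, the authors' deposited tables give a read count, TPM and FPKM for each of 17276 genes. The deposited counts behave as RSEM expected counts, since 9.31 to 10.7% per library are not whole, and they were rounded here. TPM and FPKM were used as deposited by the authors.

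Counts were tested with edgeR 4.0.16 (R 4.3.3; robust quasi-likelihood fit, filterByExpr, TMM factors, group as the only term), which kept 11747 genes, with Benjamini-Hochberg adjustment over all of them and a threshold of 0.05. Intervals are 95% intervals from that fit, which does not use the pairing by replicate number. Alternatives were DESeq2 1.42.0, limma 3.58.1 on log2(FPKM + 1) for genes with a mean FPKM of at least 1, other scalings, no count filter, a replicate block and each library left out. Paralogue ratios were tested with an exact two-sided permutation test that treated the libraries as unpaired. The fit was also run on simulated counts with few changed genes and unpaired libraries. These data differ on both points, so that run does not test the fit under their conditions. Sequences came from RefSeq and GENCODE vM21 tables and were aligned locally with Biopython 1.88. No 2 libraries of the same group agreed within sampling noise (the lowest chi-square per degree of freedom was 47.8).

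Libraries of equal replicate number deviated together: the correlations of their deviations from the group means were 0.679, 0.642, 0.56 and 0.467 over 8446 genes. Over 83 members they were 0.579, 0.334, 0.422 and 0.164. The highest between unequal numbers, over the 8446 genes, was -0.018. Deviations cancel within a group, which lowers the values between unequal numbers, so these are no independent support. The numbers in the titles were therefore taken to pair the libraries. The members, lists and tests were chosen with earlier results of these data known. Genes are named by a rule: the called members of largest change, the most abundant member of each role group, both genes of each paralogue pair, and up to 3 called genes of each companion list by smallest p. Members named besides were chosen after their values were seen, as were the classes of copies. Lists for host transcripts of small nucleolar RNAs, and Rpl10l, Rpl39l and Rps4l, were not analysed here. Floors of 3 counts cover counting error only. Some genes of these lists are not reported here by name; counts, medians and ranges include them.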

Additional observations from a re-analysis of the deposited data

How the results depend on the processing

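Rpl7l1 was called higher in all 15 alternatives run, with log2 fold changes of 0.61 to 0.90, and Rpl3 kept its direction in all 15 and its call in all but the 5 left-out libraries named in the report. The number of members called higher was 2 in the analysis reported, 4 by upper quartile factors, 16 by library totals and 17 by FPKM, and 1 to 2 with a library left out. The number called lower was 0, and it was 1 with DESeq2, 1 without a count filter (Rps23rg1, with 15 counts in all, at -3.43) and 0 to 1 with a library left out. With the replicate block, which follows the pairing by replicate number, it was 2 (Rps27 and Rpl7a), and the block changed no other member's call. Rps19bp1 was called lower without static library 1 or 4 (adjusted p of 0.049 and 0.0488 by edgeR), and Rps29 higher without static library 3 (adjusted p = 0.0496). TMM factors computed without the members, an alternative added after seeing the data, changed no member's call. The members' median was 0.11 by upper quartile factors, 0.20 by library totals and 0.17 by FPKM, and -0.05 to 0.002 with a library left out. Among all genes, 1539 were called lower with library totals and 1309 with FPKM, against 2783. The summed share differed by 1.43 points of TPM and by 0.488 points of estimated counts. By upper quartile factors, 1 gene was higher and 1 lower among other TOP mRNAs, 6 and 2 among initiation factors, 3 and 5 in mTORC1 and TOP control, and 33 and 3 among mitochondrial ribosomal proteins. By library totals the counts were 3 and 0, 8 and 1, 6 and 4, and 43 and 1. Of all tested genes, 31.1% were higher and 16.9% lower by upper quartile factors, and 35.4% and 13.1% by library totals.

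Small uncalled changes turned their sign with the scaling, under which the median of all genes stood at 0.13 (upper quartile), 0.22 (totals) and 0.17 (FPKM), against -0.01 with TMM factors. Under upper quartile factors, library totals and log2(FPKM + 1), in that order, the log2 fold changes were 0.12, 0.21 and 0.20 for Rplp0, 0.081, 0.17 and 0.16 for Rpl5, 0.027, 0.12 and 0.10 for Rpl10, 0.10, 0.19 and 0.19 for Rpl4, 0.0087, 0.098 and 0.083 for Rps2 and 0.12, 0.21 and 0.18 for Rps27a. They were 0.12, 0.21 and 0.19 for Rpl36al, 0.087, 0.17 and 0.14 for Rps27l, 0.066, 0.15 and 0.14 for Rpl7, 0.0053, 0.092 and 0.082 for Rps4x and 0.026, 0.11 and 0.11 for Rack1. By library totals Rpl37rt was at 0.071, Rpl22l1 at 0.026 and Rps27 at 0.033. Leaving out one library turned the sign of 8 uncalled members among the genes named by the rule, whose values over the left-out libraries were -0.046 to 0.020 for Rplp0, -0.014 to 0.066 for Rps26, -0.054 to 0.017 for Rps27a, -0.059 to 0.067 for Rpl36al, -0.0080 to 0.043 for Rps6-ps4, -0.59 to 0.12 for Rpl37rt, -0.013 to 0.074 for Rpl36a and -0.022 to 0.089 for Rpl39. The cause was not tested.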
